A study of Rattus norvegicus with 25 samples.

Results

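The miR-133 family of muscle was followed through small RNA libraries made from rat muscle mitochondria. Its members were all rows of the count table named miR-133, which are rno-miR-133a-3p, rno-miR-133a-5p, rno-miR-133b-3p, rno-miR-133b-5p and rno-miR-133c (rno for Rattus norvegicus, left out below), 5 of the 764 mature miRNAs listed. The 25 libraries came from 13 trained and 12 sedentary male Wistar-Kyoto rats. The trained rats ran on a treadmill 5 days a week for 4 weeks from the age of 5 weeks, and the sedentary rats were put on a treadmill at rest for as long. Both groups shared every step after that: mitochondria were isolated from red gastrocnemius, a calf muscle, and treated with RNase A, an enzyme that digests exposed RNA. Each library is named here by its group and the number in its title.

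In muscle, miR-133 is made together with miR-1 or miR-206 from shared primary transcripts: miR-133a with miR-1 in skeletal muscle and heart, and miR-133b with miR-206 in skeletal muscle. Muscle transcription factors such as MyoD, MEF2 and SRF switch these transcripts on. In cultured mouse myoblasts miR-133 is known to favour proliferation and to repress SRF, while miR-1 and miR-206 favour differentiation. Mature miRNAs guide Argonaute proteins to messenger RNAs, mainly through the seed, bases 2 to 8. In RefSeq's annotation of the assembly GRCr8, Mir133a1 and Mir1 were neighbours within the gene Mib1, and Mir133b was the neighbour of Mir206 within a long non-coding RNA gene.

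The mature sequences are shown first because they decide how far the rows can be told apart. They are RefSeq's for GRCr8, 5′ to 3′, with the seed in capitals.
miR-133a-3p: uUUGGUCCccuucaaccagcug
miR-133b-3p: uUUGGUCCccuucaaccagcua
miR-133c: cAGCUGGUugaaggggaccaa
miR-133a-5p: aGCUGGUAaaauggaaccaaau
miR-133b-5p: gCUGGUCAaacggaaccaagu
miR-1-3p: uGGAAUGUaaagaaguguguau
miR-1b: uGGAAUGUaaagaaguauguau
miR-206-3p: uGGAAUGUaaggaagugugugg

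The 3p arms of miR-133a and miR-133b shared the seed UUGGUCC, which no other row had among the 686 rows with 1 RefSeq sequence. Counted from 1 at the 5′ end of miR-133a-3p, they differed by G22A alone, the last of 22 bases. The miR-1 and miR-206 rows shared a different seed, GGAAUGU. From miR-1-3p, miR-1b differed by G17A and miR-206-3p by A11G, A21G and U22G. The 5p arms of miR-133a and miR-133b had seeds that differed from each other and from those of the 3p arms.

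miR-133c has the sequence of the opposite strand of miR-133a-3p. The gene listed with the synonym Mir133c, Mir3582, overlapped Mir133a1 in the RefSeq table. The complementary stretch is in capitals, 21 bases long and running antiparallel.
miR-133a-3p: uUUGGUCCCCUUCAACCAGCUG
miR-133c: CAGCUGGUUGAAGGGGACCAA

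Summed over the 25 libraries, rno-miR-133a-3p had 3645 counts, rno-miR-133c had 3645 counts and rno-miR-133b-3p had 3632 counts. The miR-133c count equalled the miR-133a-3p count in 25 of 25 libraries. The miR-133b-3p count equalled it in 16 libraries and was lower in 9, by at most 2 counts in a library and 13 counts in all. The 3 rows therefore carried nearly 1 set of counts, and no label says how reads matching several rows were assigned. Levels of miR-133a, miR-133b and the opposite strand could not be told apart, so miR-133a-3p stands for all 3 below. Values of the other 2 rows are not further evidence.

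Total counts were 26793 to 202388 in the trained libraries and 12181 to 186006 in the sedentary ones. With levels in CPM, counts scaled to a library total of 1000000, the 6 markers listed for skeletal muscle summed to 109901 to 271093 CPM in trained and 91475 to 324808 CPM in sedentary libraries, with 5 of 6 counted and miR-208b-3p at 0. Those 6 include miR-133a-3p and miR-133b-3p, whose nearly equal counts both enter the sum, so they are not separate evidence of muscle. Of the others, miR-1-3p and miR-206-3p were counted in all 25 libraries and miR-499-5p in only 5. The heart marker miR-208a-3p had no count. Of 4 erythrocyte markers only miR-486 was counted, at 10117 to 52678 CPM in trained and 10020 to 47518 CPM in sedentary libraries, and muscle also makes it. Of 5 leukocyte markers 2 were counted (0 to 1138 CPM in trained and 0 to 2381 CPM in sedentary libraries), with miR-155-5p, miR-142-3p and miR-223-3p at 0. The 2 endothelial markers summed to 1523 to 8548 CPM in trained and 2490 to 18001 CPM in sedentary libraries, with miR-126a-5p at 0, and the 3 smooth muscle markers to 8054 to 34139 CPM in trained and 8284 to 54853 CPM in sedentary libraries. Fewer cells or mitochondria of a type and less RNA in each cannot be told apart in such preparations.

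miR-133a-3p, the arm usually loaded into Argonaute, was a minor row in these mitochondria and the most uneven of the muscle miRNAs that were counted in most libraries. In trained libraries its lowest level was 0 CPM, its median 1933 CPM and its highest 5487 CPM. In sedentary libraries its lowest level was 0 CPM, its median 1434 CPM and its highest 9523 CPM. The groups overlapped over nearly their whole range. It averaged 2145 ± 1716 CPM over trained libraries (SD, n = 13) and 2622 ± 3240 CPM over sedentary ones (SD, n = 12), so the SD was close to the mean or above it.

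The row took 0.237% ± 0.252 of a library's counts (SD, n = 25). The 3 rows together took 0.711% ± 0.754, in which nearly the same counts enter 3 times. In mean level, 37 rows of the table stood above miR-133a-3p. Within single libraries its median rank was 46 and its best rank 19. Totals and ranks include near-identical rows of other miRNAs, such as miR-3571 beside miR-1-3p, described below.

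The libraries fell into 2 sets on either side of a gap in the level of miR-133a-3p. In 18 libraries, 11 trained and 7 sedentary, it had 52 to 621 counts, or 897 to 9523 CPM. In the other 7 libraries, 2 trained and 5 sedentary, it had 0 to 11 counts and at most 145 CPM. The gap between the sets was 6.20-fold. Trained library 21 had 0 of 170233 counts, which allows up to 17.6 CPM, and trained library 17 had 1 count (13.8 CPM). Sedentary libraries 4 and 12 had 0 counts, with limits of 98.3 and 39.3 CPM, and sedentary libraries 15, 8 and 29 had 1, 4 and 11 counts.

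In total count, miR-1-3p level and number of rows with a count, the 7 low libraries lay within the range of the other 18. Their totals were 30527 to 170233, within the 12181 to 202388 of the other 18. Their miR-1-3p level was 58931 to 171753 CPM, against 51317 to 186928 CPM in the other 18, and they had a count in 83 to 121 rows, against 83 to 154. Their miR-206-3p level was 41111 to 155586 CPM, against 34316 to 140382 CPM in the other 18. In miR-206-3p, sedentary library 29 thus lay above the range of the other 18. Trained library 21 alone held 29238 counts of miR-1-3p beside its 0 counts of miR-133a-3p. Why these libraries were low was not tested.

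**Figure D1:**
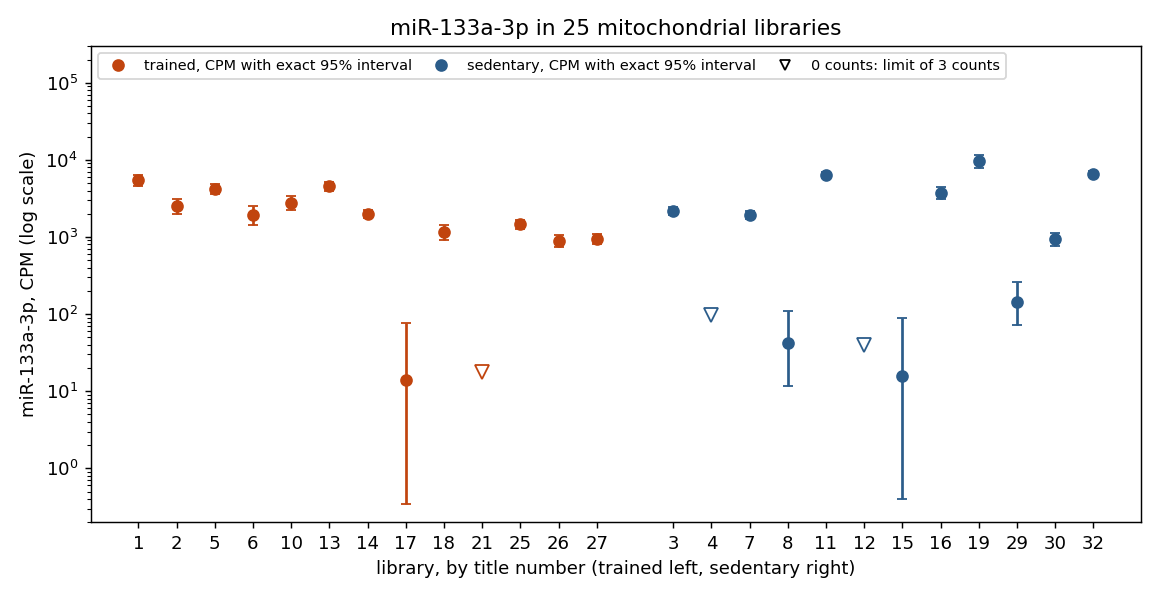
Level of miR-133a-3p in each library, in CPM on a log axis, by title number, trained libraries left and sedentary libraries right. Points show the level with its exact 95% interval, which covers counting error only, and open triangles show the limit of 3 counts for libraries with 0 counts. 2 trained and 5 sedentary libraries lie at or under 145 CPM, and the other 18 lie at 897 CPM or above.

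The partner miRNAs from the shared transcripts were abundant and even. miR-1-3p, made with miR-133a, led the table with 119827 ± 38487 CPM in trained (SD, n = 13) and 91538 ± 40604 CPM in sedentary libraries (SD, n = 12). miR-206-3p, made with miR-133b, had 78083 ± 37144 CPM in trained and 72942 ± 38083 CPM in sedentary libraries. miR-1b shares their seed, but RefSeq's annotation listed no miR-133 gene beside its own. The nearest miRNA gene listed there was Mir124-3, 527752 bases away. A gene missing from the annotation would not be seen, so whether miR-1b is also such a partner was not settled. miR-1b had 88106 ± 29663 CPM in trained and 77031 ± 15199 CPM in sedentary libraries. The row of miR-3571, which is the opposite strand of miR-1-3p over 21 bases, had 241335 counts beside the 241423 counts of miR-1-3p.

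The highest library exceeded the lowest by 3.64-fold for miR-1-3p, 4.53-fold for miR-206-3p and 3.38-fold for miR-1b. No such ratio exists for miR-133a-3p, which had libraries at 0. The SD of log2 CPM over the 25 libraries was 3.47 for miR-133a-3p, the 8th highest of 76 tested rows, whose median was 2.41 and range 0.43 to 3.72. It was 0.56 for miR-1-3p (73rd), 0.72 for miR-206-3p (67th) and 0.43 for miR-1b (76th). Across the table, less abundant rows varied more. The biological coefficient of variation that edgeR fitted was 1.37 for miR-133a-3p and had a median of 1.19 over the tested rows.

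**Figure D2:**
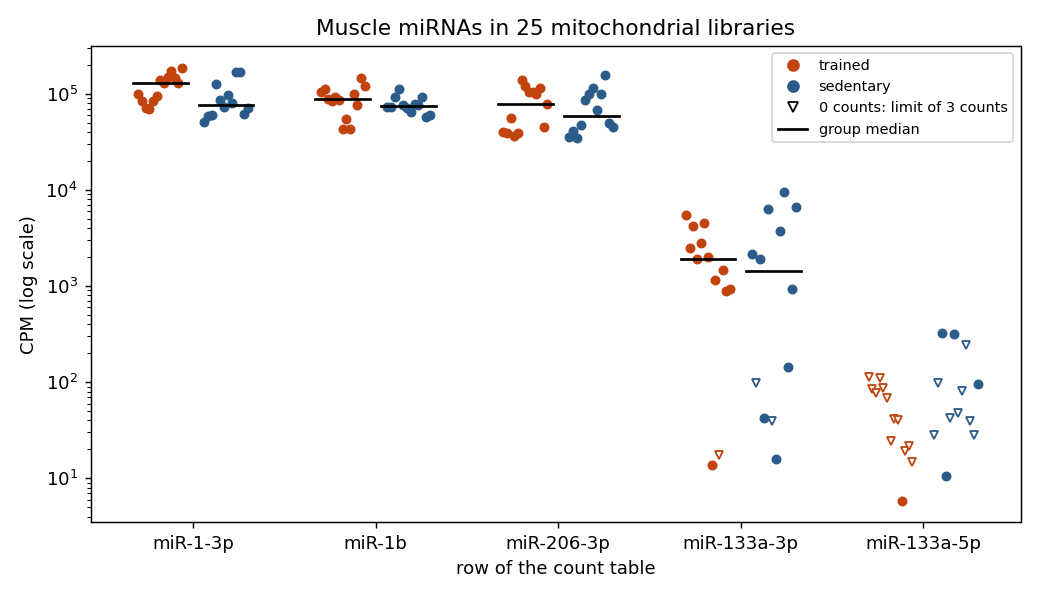
Levels of miR-1-3p, miR-1b, miR-206-3p and both arms of miR-133a in all 25 libraries, in CPM on a log axis, trained left of sedentary for each miRNA; points are libraries, bars are group medians and open triangles show the limit of 3 counts for libraries with 0 counts. miR-133a-3p reaches from 0 to 9523 CPM, while the lowest miR-1-3p level is 51317 CPM.

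**Figure D3:**
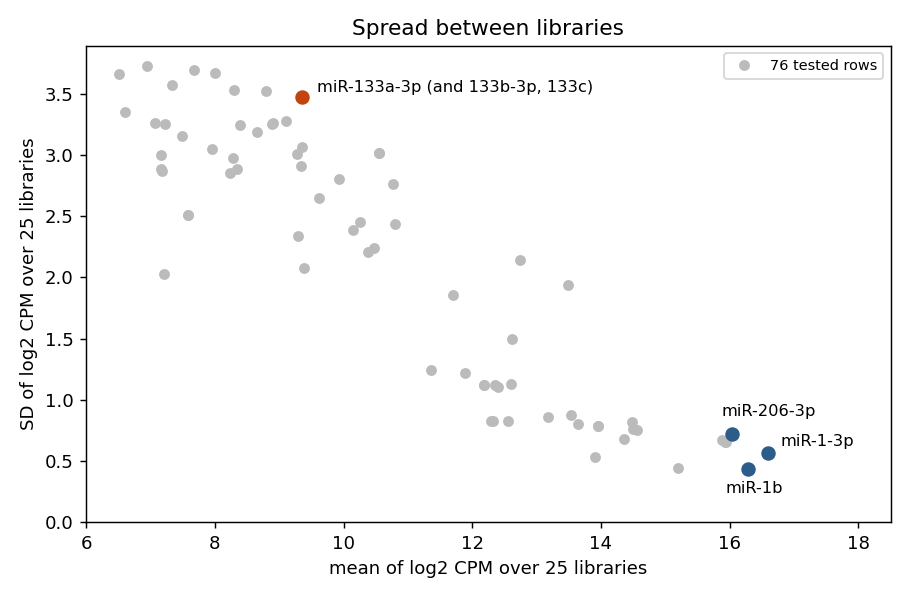
SD of log2 CPM over the 25 libraries against mean log2 CPM for the 76 tested rows (grey). The miR-133a-3p point, which its 2 near-identical rows share, stands at an SD of 3.47, and miR-1-3p, miR-1b and miR-206-3p lie at 0.43 to 0.72 among the most abundant rows.

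Rows with almost the same mean level were steadier. The 2 rows just above miR-133a-3p in mean level were miR-199a-3p with 3311 ± 2338 CPM (SD, n = 25) and miR-379-5p with 2522 ± 1859 CPM. The 2 just below its group of 3 rows were miR-676 with 2313 ± 1783 CPM and miR-100-5p with 2280 ± 2024 CPM. All 4 lay within 1 SD of miR-133a-3p, so the order of these levels is not firm. Their SDs of log2 CPM were 2.43, 2.24, 2.21 and 2.80, each below that of miR-133a-3p.

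The next question was whether endurance training went with a different level of miR-133 in the mitochondria. No difference was detected. The fitted log2 fold change of miR-133a-3p, trained over sedentary, was 0.16 (SE 0.88, 95% interval -1.60 to 1.91, adjusted p = 0.999 by edgeR's quasi-likelihood test with Benjamini-Hochberg adjustment). The miR-133c row gave 0.16 and the miR-133b-3p row 0.16, as their counts require. The interval is wide: neither a doubling nor a halving of the level lay outside it.

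No row of the table passed the test: edgeR called 0 of 76 (0%), with 1 of 76 (1.32%) at an unadjusted p under 0.05. DESeq2 called 0 of 260 with 8 under that unadjusted level, and limma-voom called 0 of 76 with 14. The sign of the miR-133a-3p value depended on how libraries were scaled, since it was 0.16 after TMM scaling and -0.29 with total counts alone, and the plain mean CPM was lower in trained libraries.

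For the partners, the log2 fold change was 0.60 for miR-1-3p (SE 0.36, edgeR adjusted p = 0.916) and 0.30 for miR-206-3p (SE 0.38, edgeR adjusted p = 0.971). For miR-1b it was 0.33 (SE 0.30, edgeR adjusted p = 0.916). None passed the threshold. With no filter on low counts, where 66 of 260 rows (25.4%) were called, miR-1-3p was called at 0.73 (edgeR adjusted p = 0.00758, the lowest of all settings run, which reached 0.996), while the 3 abundant miR-133 rows were not.

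**Figure D4:**
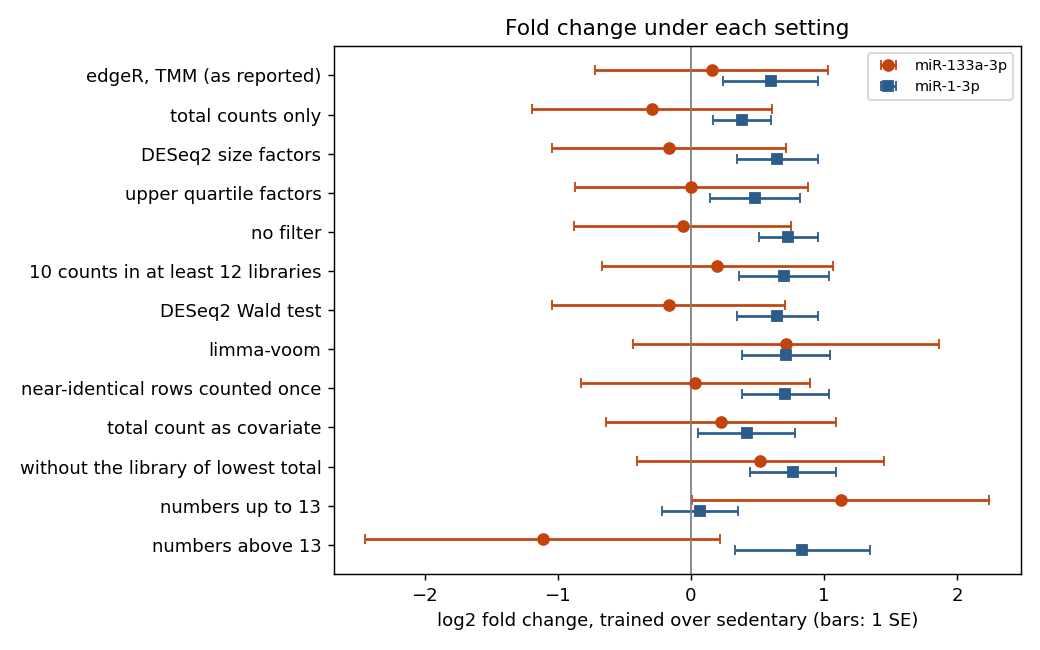
Log2 fold change, trained over sedentary, with 1 SE, of miR-133a-3p (circles) and miR-1-3p (squares) under each way of scaling, filtering and testing, and in each range of title numbers. The miR-133a-3p value lies on both sides of 0, between -1.11 and 1.13, and miR-1-3p is above 0 throughout.

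Ratios within a library need no scaling to the other miRNAs. For each 1000 counts of miR-1-3p there were 0 to 59.8 counts of miR-133a-3p in trained libraries (median 14.3) and 0 to 92.8 in sedentary libraries (median 23.8). For each 1000 counts of miR-206-3p there were 0 to 136 counts of miR-133b-3p in trained libraries (median 19.8) and 0 to 146 in sedentary libraries (median 36.4). The groups overlapped in both ratios. Since the miR-133b-3p row holds nearly the miR-133a-3p counts, the second ratio is not one of miR-133b alone. These are ratios of read counts between different sequences of like length, and the labels name no added standard that would turn them into ratios of molecules.

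With 0.5 added to both counts, the mean log2 ratio of miR-133a-3p to miR-1-3p came to -6.99 ± 3.48 over trained libraries (SD, n = 13) and -7.50 ± 3.87 over sedentary ones (SD, n = 12), a difference of 0.51. That of miR-133b-3p to miR-206-3p was -6.28 ± 3.52 in trained and -7.12 ± 4.03 in sedentary libraries, a difference of 0.84. At least 10 counts of miR-133a-3p were found in 11 of 13 trained and 8 of 12 sedentary libraries. The share of counts differed by -0.0478 percentage points, trained minus sedentary. The two-sided permutation p was 0.735 and 0.587 for the ratios and 0.646 for the share, and Fisher's exact p for the libraries was 0.378. The adjusted p was 0.735 for each of these 4 tests, which rest on nearly the same miR-133 counts.

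The trained libraries showed a split along their title numbers. In the 6 trained libraries numbered up to 13 there were 27.6 to 59.8 counts of miR-133a-3p per 1000 of miR-1-3p, and in the 7 trained libraries above 13 there were 0 to 14.3, with no overlap. Their miR-133a-3p levels were 1933 to 5487 CPM up to 13 and 0 to 1994 CPM above 13, overlapping slightly. Their miR-1-3p levels were 70022 to 99653 CPM up to 13 and 128448 to 186928 CPM above 13, and total counts 26793 to 43510 and 72553 to 202388, neither overlapping. The ranges were chosen with these totals known and the labels do not say what the numbers mark, so number and depth cannot be told apart here.

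Sedentary libraries showed no such split. Up to 13 they had 0 to 73.9 counts per 1000 of miR-1-3p, and above 13 they had 0.163 to 92.8, with levels of 0 to 6385 CPM and 15.9 to 9523 CPM. Their totals also overlapped, at 30527 to 186006 up to 13 and 12181 to 106661 above 13.

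Within the ranges the difference between the groups had opposite signs. Up to 13 the log2 fold change of miR-133a-3p, trained over sedentary, was 1.13 (SE 1.12, edgeR adjusted p = 0.996), and above 13 it was -1.11 (SE 1.33, edgeR adjusted p = 0.803). The change in the fold change between the ranges was -2.31 (SE 1.76, edgeR interaction p = 0.195, adjusted p = 0.705), so the signs were not shown to differ. Up to 13, at least 10 counts were found in 6 of 6 trained and 3 of 6 sedentary libraries (Fisher's exact p = 0.182). Above 13 they were found in 5 of 7 trained and 5 of 6 sedentary libraries (Fisher's exact p = 1).

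**Figure D5:**
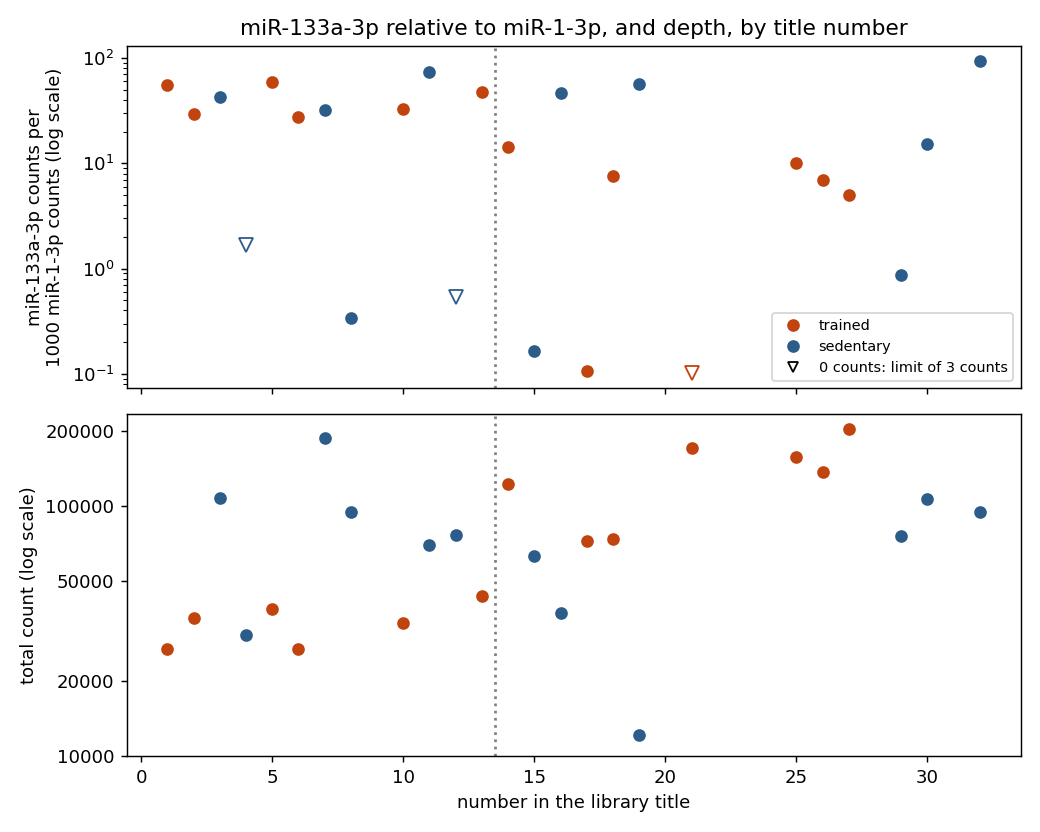
Counts of miR-133a-3p per 1000 counts of miR-1-3p (upper panel) and total count (lower panel), both on log axes, against the number in the library title, with trained and sedentary libraries in different colours. Open triangles mark libraries with 0 counts at the limit of 3 counts, and the dotted line divides numbers up to 13 from those above. Trained libraries above 13 lie at 14.3 or under in the upper panel and at 72553 or over in the lower one.

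Because the libraries fell into 2 sets, relations with other measures were computed over the 18 libraries above the gap only, a choice made after seeing the data. Between log2 CPM of miR-133a-3p and miR-1-3p, Pearson's r was -0.16 (permutation p = 0.526) and Spearman's rho -0.077 (permutation p = 0.761). Without sedentary library 19 and trained library 27, the farthest in miR-1-3p, r was -0.26. Between miR-133b-3p and miR-206-3p, r was 0.089 (permutation p = 0.723) and rho 0.10 (permutation p = 0.682), and r was 0.042 without trained libraries 13 and 14. Neither pair of rows showed a relation that passed a permutation test, and the adjusted p was 0.761 for each over 6 coefficients. The miR-133b-3p row holds nearly the miR-133a-3p counts, so the second pair does not measure miR-133b itself against miR-206.

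For miR-133a-3p and miR-1-3p the groups gave opposite signs. Within the 11 trained libraries r was -0.70 (permutation p = 0.0206), and within the 7 sedentary libraries it was 0.75 (exact permutation p = 0.0397). These p-values are unadjusted, and the difference between the groups was not tested.

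Among these 18 libraries, the level of miR-133a-3p was lower in those with larger totals. The 18 were picked by this same level, which the p-values below do not take into account. The relation is not given over all 25 libraries or for other rows. Over the 18 libraries r with the log2 total count was -0.66 (permutation p = 0.00312, adjusted p = 0.0116) and rho -0.66 (permutation p = 0.00387, adjusted p = 0.0116). Sedentary library 19 had the smallest total and trained library 27 the largest. Without both of them r was -0.49 (permutation p = 0.0550) and no longer passed the threshold. It was -0.77 within the 11 trained libraries (permutation p = 0.00791) and -0.66 within the 7 sedentary ones (exact permutation p = 0.0952). By title number it was -0.30 in the 9 libraries up to 13 (exact permutation p = 0.430) and -0.76 in the 9 above (exact permutation p = 0.0167). The total is also the divisor of CPM. With the total as a covariate, the log2 fold change of miR-133a-3p, trained over sedentary, was 0.23, and without sedentary library 19 it was 0.52. With each library thinned to 12181 counts, at least 5 counts of miR-133a-3p were found in 11 of 13 trained and 7 of 12 sedentary libraries (Fisher's exact p = 0.202).

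The rows most like miR-133a-3p over the 25 libraries, by Spearman's rho of log2 CPM, were miR-30d-5p (0.55), miR-150-3p (0.54), miR-6215 (0.52), let-7b-5p (0.50) and miR-28-3p (0.49). On this measure miR-1-3p stood at -0.19, miR-206-3p at -0.18 and miR-1b at 0.042. All are shares of the same totals, and the values are descriptions.

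The 5p arms, which face the 3p arms in the hairpin, were rare. The precursors of miR-133a and miR-133b are shown as RefSeq gives them for GRCr8, with both mature arms in capitals, the 5p arm first.
Mir133a1: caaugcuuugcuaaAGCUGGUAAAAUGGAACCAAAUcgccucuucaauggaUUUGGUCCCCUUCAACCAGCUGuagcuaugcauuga
Mir133b: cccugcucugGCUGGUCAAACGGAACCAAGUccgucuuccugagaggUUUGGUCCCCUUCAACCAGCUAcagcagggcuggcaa

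rno-miR-133a-5p had 96 counts in 5 libraries. It made up 2.57% of the counts of both miR-133a arms summed over the libraries (exact Clopper-Pearson 95% interval 2.08% to 3.12%). Without sedentary library 7, which held 61 of the 96 counts, the share was 1.05% (0.735% to 1.46%), a split made after seeing the data. Single libraries with a count of either arm ranged from 0% to 100%, so the summed share describes no typical library. miR-133b-5p had no count, and 0 beside the 3632 counts of the miR-133b-3p row allows a share of up to 0.0826%. Those 3p counts cannot be assigned to miR-133b, so this sets no limit for its own arms. Nor can the 3p counts in the miR-133a share be assigned to miR-133a alone. The partners also lacked their other arm: miR-1-5p and miR-206-5p had 0 counts, which allows 0.00124% and 0.00186% of the counts of their arms.

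The 96 counts of miR-133a-5p lay almost wholly in sedentary libraries. In trained libraries there was 1 count, in library 21, which had 0 counts of the 3p arm. In sedentary libraries there were 61 counts in library 7, 24 in library 12, 9 in library 32 and 1 in library 8. Sedentary library 12 also had 0 counts of the 3p arm. The sums were 1 in trained and 95 in sedentary libraries, or 34 in sedentary libraries without library 7.

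The row had too few counts for the filter. Without a filter edgeR called it, at a log2 fold change of -4.67 (SE 1.72, adjusted p = 0.0318), where 25.4% of all rows were called. DESeq2 did not, at -3.51 (SE 2.96, adjusted p = 0.989). With counts in only 5 libraries, the size of the difference is not a measured fold.

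Other muscle miRNAs differed from miR-133 in either direction. miR-378a-3p, which lies in an intron of the gene for PGC-1β, a regulator of mitochondria, had 136920 counts, and miR-486, which muscle and red blood cells make, had 49420. Both were counted in all 25 libraries. miR-499-5p, encoded within a slow-fibre myosin gene, had 412 counts in only 5 libraries. Both arms of miR-208a and miR-208b, and miR-499-3p, had 0 counts, which allows up to 1.43 CPM over all libraries together and 14.8 to 246 CPM in single ones.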

How the data were processed

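Groups came from the sample labels, 1 library per rat. Per the labels' protocols, mitochondria from about 100 mg of muscle got 312 µg of RNase A (1 h, 37 °C) before lysis. Libraries were made with adapters at 0.3 of their strength and 20 PCR cycles, with no molecular identifiers named. The authors deposited raw counts per mature miRNA, in which empty cells were read as 0 since the normalized table held 0 there. The authors also deposited a normalized signal, the count divided by 1 factor per library, used only as an alternative. Of tools, fastp 0.20.0 and DESeq2 1.36 stand in the submitters' processing notes. Neither aligner, build, strand setting nor treatment of reads matching several rows was given in the sources used here. Genome positions were therefore left out. Sequences and neighbours came from RefSeq tables of GRCr8.

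The main test was edgeR 4.0.16 (R 4.3.3), quasi-likelihood with TMM factors and no covariate, trained minus sedentary, over the 76 rows that filterByExpr kept (minimum count 10, minimum total 15), which held 96.9% to 99.0% of counts. The threshold was a Benjamini-Hochberg adjusted p of 0.05. CPM used the plain total. Log2 values used 0.5 added to each count. Single values were tested by permutation (two-sided, 100000 resamples), or exact ones for groups under 10 (scipy 1.17.1). DESeq2 1.42.0 and limma-voom (limma 3.58.1) were alternatives. Only the edgeR fit was tested on simulated counts. These varied less between libraries than the real ones, so that test does not cover the spread seen here. A planned correlation over all 25 libraries was replaced by 1 over the 18 libraries above the gap, since the libraries formed separate sets.

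No 2 libraries of a group held the same data: over 144 pairs, chi-square divided by its degrees of freedom was at least 20.7. The labels give neither litter nor batch, so p-values measure the spread between these libraries. Intervals and the limit of 3 counts for a count of 0 cover counting error only. Named miRNAs were the miR-133, miR-1 and miR-206 rows, other muscle miRNAs, the 5 rows most like miR-133a-3p and the 4 rows nearest in mean level. The members and lists were chosen with earlier results of these data known.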

Additional observations from a re-analysis of the deposited data

How the results depend on the processing

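No setting called a difference between trained and sedentary libraries for miR-133a-3p, miR-133b-3p or miR-133c, and the sign of the fold change was not stable. Against the reported log2 fold change of 0.16, miR-133a-3p and miR-133c gave -0.29 with total counts only, -0.17 with DESeq2 size factors and with DESeq2's test, -0.061 with no filter and -1.11 above number 13. The miR-133b-3p row gave -0.29, -0.16, -0.16, -0.057 and -1.11 in the same order. Leaving out each library gave -0.34 to 0.52 for each of the 3 rows, below 0 in 12 of 25 cases (for miR-133a-3p without trained library 1, 5, 10, 13 or 25, or sedentary library 3, 7, 8, 12, 15, 29 or 30). With no filter 66 rows were called, against 0.

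The difference in share became 0.182 percentage points up to number 13 and 0.0150 without sedentary library 19, the lowest total, and 0.94 as a difference in log2 CPM. Leaving out each library gave -0.0756 to 0.0150. The log2 ratio of miR-133a-3p to miR-1-3p differed by -2.32 above number 13, -0.50 in libraries with at least 10 counts and -0.63 between medians. Leaving out each library gave -0.029, without sedentary library 12, to 1.25. For miR-133b-3p to miR-206-3p these 3 settings gave -1.90, -0.18 and -0.68. Detection at 10 counts differed by -11.9 percentage points above number 13. No p in these settings fell under 0.0866.

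The correlation of miR-133a-3p with miR-1-3p was 0.080 with the authors' normalized values, -0.70 in trained libraries, 0.75 in sedentary libraries and 0.70 up to number 13. That of miR-133b-3p with miR-206-3p was -0.15 in trained libraries and 0.68 up to number 13, and -0.029 to 0.18 when each library was left out, the lowest without sedentary library 19. The cause of these changes was not tested. No paired analysis was possible because the trained and sedentary titles share no number. The 7 low libraries held at most 11 counts of miR-133a-3p each, so their own levels have wide counting intervals.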

Other observations

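The equality of the miR-133a-3p and miR-133c rows was followed through the whole table, a search chosen after the counts were seen. 17 pairs of counted rows were complementary over at least 18 bases, with at least 100 counts in 1 of the rows. In 15 of the 17 pairs both rows agreed within 10% in all libraries holding 10 or more counts of the pair, and in 7 pairs they were identical in those libraries. The miR-133a-3p and miR-133c pair was among these 7. The exceptions were let-7d-5p with miR-3596b, which differed by up to 42.8%, and let-7c-5p with miR-3596a, which differed by up to 98.9%. In 1 further pair a row was at 0: miR-337-5p had 272 counts and miR-3544 had none.

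Rows that differ by 1 substitution behaved differently with its position. Of 13 such pairs with at least 100 counts in both rows, 2 had it in the last 2 bases. These were miR-133a-3p with miR-133b-3p, which differed by at most 2% in a library, and miR-103-3p with miR-107-3p, which differed by at most 16%. As above, only libraries holding 10 or more counts of a pair were compared. The other 11 had it at positions 9 to 19, and 0 of them agreed within 10%. The nearest was miR-1-3p with miR-1b, which differed by up to 71.5%.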
